A study of Mus musculus with 11 samples.

Results

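Apoptosis regulators of the BCL2 and caspase families were described in the mammary gland of wild-type mice at parturition (L1). A list of 38 names gave 37 genes, because Bim is an older name of Bcl2l11, and a gene was a member when a locus of the deposited expression table carried exactly its symbol. Of the 37 genes, 35 were measured, among 14847 named genes in the table. No locus carried Bcl2l2 or Tnfrsf1a, so no level of these genes is given, and only their promoter sequences were counted. The study followed STAT5A binding, the promoter mark H3K4me3 and transcripts through pregnancy and into lactation. All mice were wild type on a mixed 129SV, FVB/N and C57BL/6 background. The 11 samples came from whole mammary tissue at parturition, from whole tissue and isolated mammary epithelial cells on day 13 of pregnancy, and from whole tissue on day 6 of pregnancy. Only the RNA-seq library of whole tissue at parturition, dissected free of lymph nodes, held the members' levels, so each value stands for 1 library without a replicate and no test was possible.

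Cells of the mammary epithelium are kept alive during pregnancy and lactation and are removed by programmed death after weaning. In the mitochondrial pathway, BCL2-like survival proteins restrain the pore formers BAX and BAK, BH3-only proteins lift that restraint, and cytochrome c released through the pore assembles APAF1 and caspase-9 into the apoptosome. In the death receptor pathway, ligands of the TNF family recruit adaptors and caspase-8, and inhibitor of apoptosis (IAP) proteins act further down by binding caspases or receptor complexes. Signalling from the prolactin receptor through STAT5 is a known survival signal of alveolar cells.

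Levels are given in FPKM, which are fragments scaled by the length of a transcript and by the mapped fragments of the library, so that genes can be set side by side. Where a gene had several loci, as 9 of the 35 members did (25.7%, against 25.8% of all named genes), its highest locus stood for it. The tissue matched its label: the 5 milk protein markers stood between 8034 and 170861 FPKM and the 5 luminal keratin and junction markers between 21.4 and 244 FPKM. Other cells of the tissue also gave transcripts: adipocyte markers ran from 5.51 to 723 FPKM and fibroblast markers from 2.40 to 82.6 FPKM. Of 5 myoepithelial markers 4 were measured, from 28.8 to 54.2 FPKM, and Acta2 had no level. Skeletal muscle markers ran from 8.37 to 37.2 and endothelial markers from 3.45 to 15.1 FPKM. The 6 measured leukocyte markers had a median of 1.26 FPKM, and none was above 3.004 FPKM. In such whole tissue, fewer cells of a type and less RNA per cell cannot be told apart. Added together, the members came to 0.0409% of the FPKM of all named genes, and 0.0662% once the 5 milk protein markers were left out.

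Most apoptosis regulators were transcribed at moderate levels, and survival and death genes covered nearly the same range. Over the 9 measured survival genes the median level was 8.72 FPKM, against 5.95 FPKM over the 26 death genes and 3.90 FPKM over all named genes. On the log2(FPKM + 1) scale the medians were 3.28 for survival genes and 2.80 for death genes, a difference of 0.49. The mean levels in FPKM were all but equal, with a survival over death ratio of 1.00. Survival genes ran from Bcl2 at 0.474 to Mcl1 at 35.2 FPKM, and death genes from Pmaip1 at 0.360 to Cycs at 62.3 FPKM, so the range of the survival genes lay inside that of the death genes. When each survival gene was set against each death gene, the survival gene was higher in 55.98% of the combinations. Genes are not replicates, so this difference has no error of its own.

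**Figure D1:**
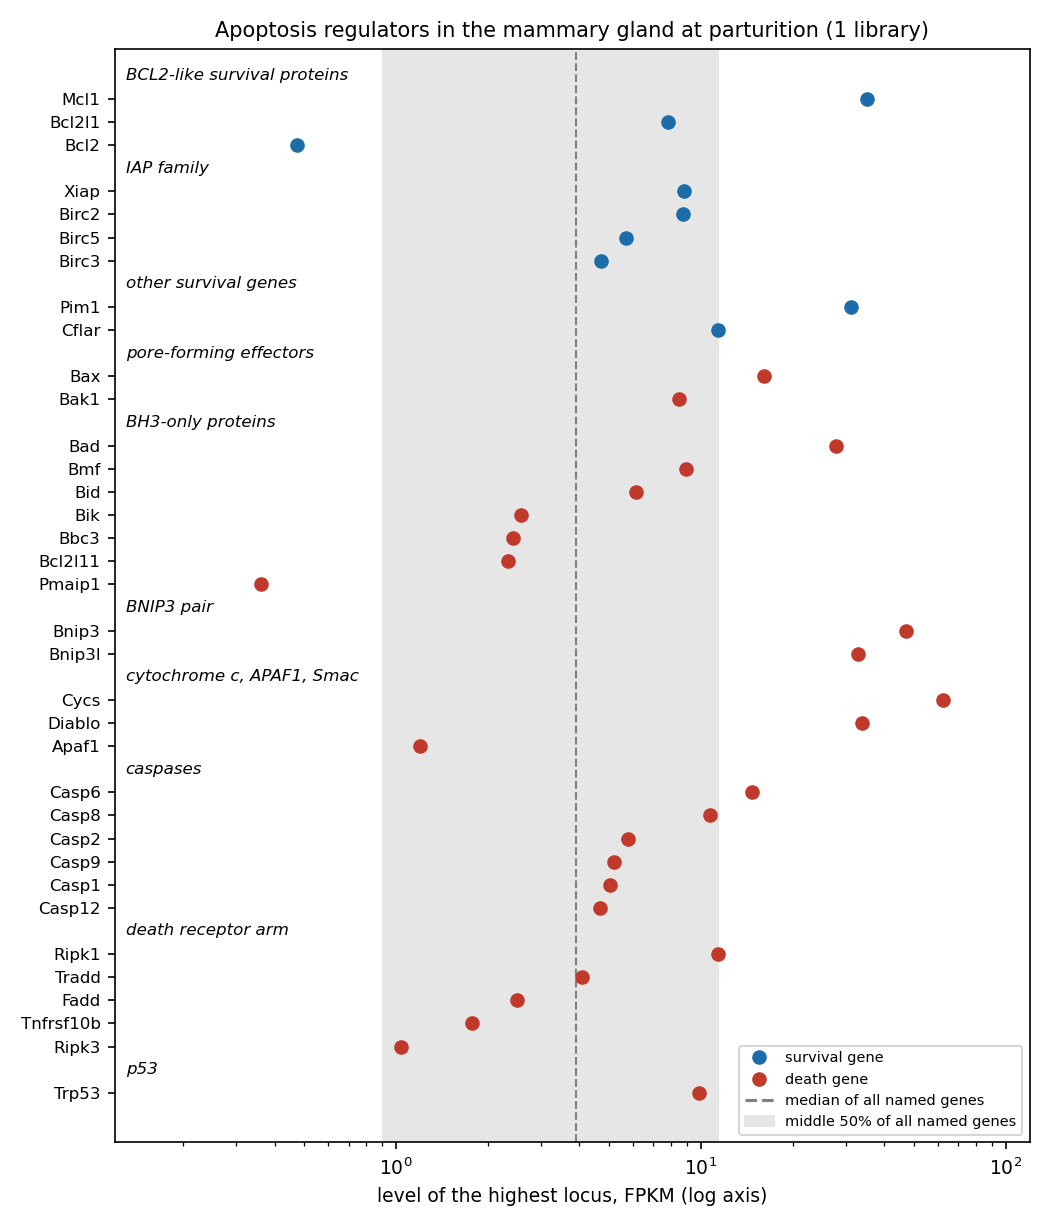
Level of each measured member in FPKM on a log axis, 1 point per gene at its highest locus, grouped by role, with survival genes in blue and death genes in red. The dashed line is the median of all named genes, 3.90 FPKM, and the grey band their middle 50%; Cycs at 62.3 and Bnip3 at 47.0 FPKM lie farthest to the right, and Pmaip1 and Bcl2 lie left of the band.

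Transcripts of nearly every member were found at a low level or above. At least 1 FPKM was reached by 33 of the 35 members (94.3%), against 73.6% of all named genes, and the exceptions were Bcl2 and Pmaip1. At least 5 FPKM was reached by 23 members (65.7%), against 44.3% of named genes. At 10 FPKM the members came close to the table as a whole, with 12 of 35 (34.3%) against 27.9% of named genes. The shares of survival and death genes at this level were 33.3% and 34.6%. The highest member, Cycs, was above 95.4% of named genes.

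**Figure D2:**
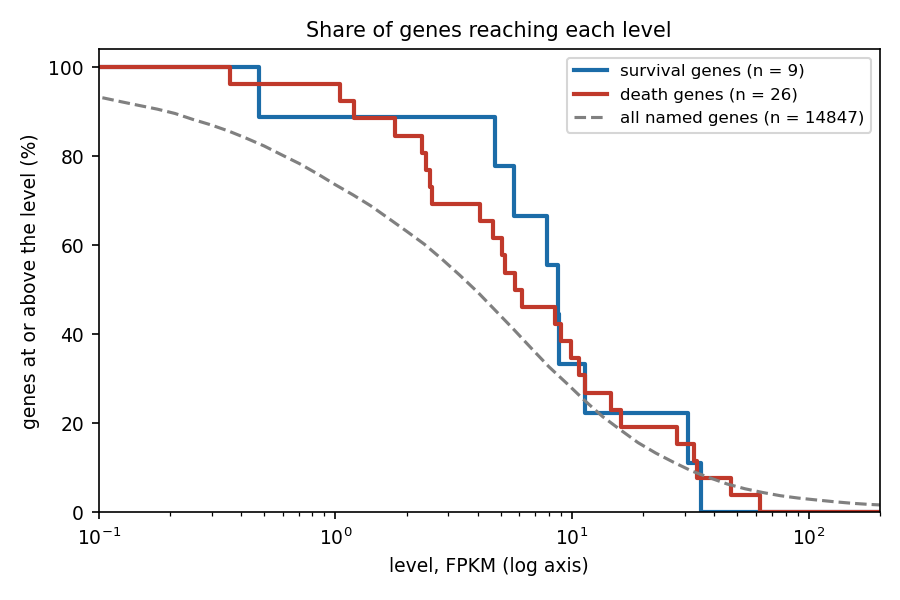
Percentage of genes at or above each level (FPKM, log axis) for the 9 survival genes, the 26 death genes and all named genes of the library. Between 1 and 10 FPKM both lines of members lie above the dashed line of all named genes, and the survival line lies above the death line at 5 FPKM, with 77.8% against 61.5%.

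Among the BCL2-like survival genes, Mcl1 was by far the highest and Bcl2 itself was among the lowest members. Mcl1, which encodes a short-lived survival protein that holds BAK and BH3-only proteins, stood at 35.2 FPKM, above 91.5% of named genes. Bcl2l1, which encodes BCL-XL and is known as a target of STAT5 in other cell types, stood at 7.83 FPKM. Bcl2 stood at 0.474 FPKM, above 17.2% of named genes, and its other loci were listed at 0. Mcl1 was thus 74.4 times and Bcl2l1 16.5 times as high as Bcl2, and Mcl1 alone made up 80.9% of the FPKM summed over the 3 genes. The precision of both ratios to Bcl2 cannot be given, because its level is low and the depth of the library is unknown. The gene span of Bcl2l1 overlaps that of Cox4i2, which stood at 2.84 FPKM, in the gene table used here. The sequence before the start of Mcl1 is shown because it is the highest survival gene. Its capitals mark the letters of a GC box, GGGCGG, here read on the other strand and starting 20 bases before the transcript start.
Mcl1 promoter, GRCm38.p6 chr3:95658471-95658720, plus strand: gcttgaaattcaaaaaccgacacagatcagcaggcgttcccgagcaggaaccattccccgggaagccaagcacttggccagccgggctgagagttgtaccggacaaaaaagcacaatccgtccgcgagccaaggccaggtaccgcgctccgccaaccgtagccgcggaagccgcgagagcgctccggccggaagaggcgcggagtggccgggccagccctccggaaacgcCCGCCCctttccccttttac

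The IAP genes lay between 4.71 and 8.81 FPKM by their highest locus, and between 5.70 and 16.2 FPKM when the loci of each gene were summed. Xiap, whose protein binds and blocks caspases directly, stood at 8.81 FPKM, and Birc2, whose protein cIAP1 is a ubiquitin ligase at TNF receptor complexes, at 8.72 FPKM. Birc3, encoding the related cIAP2, stood at 4.71 FPKM. Birc2 had a further locus at 7.45 FPKM and Birc3 had 4 further loci, the next at 2.87 FPKM. Their ratio was 1.85 by the highest locus and 1.44 by the sums, which were 16.2 FPKM for Birc2 and 11.2 FPKM for Birc3, the second highest sum of the 4 genes. Birc5, encoding survivin, which works mainly in cell division, stood at 5.70 FPKM. The 7 proliferation markers ran from Plk1 at 1.05 to Mki67 at 26.5 FPKM, with a median of 3.62 FPKM, against 3.90 FPKM over all named genes. All 7 reached 1 FPKM, against 73.6% of named genes. The part of these markers in the level of Birc5 was not tested.

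The remaining survival genes were Pim1 and Cflar. Pim1, a kinase gene that cytokines induce through STAT5, reached 31.0 FPKM, above 90.3% of named genes, with a second locus at 4.84 FPKM. The 7 genes of the prolactin receptor and STAT5 axis in the same library ran from Socs2 at 6.61 to Elf5 at 577 FPKM. Cflar, whose protein c-FLIP competes with caspase-8 at death receptors, stood at 11.4 FPKM. Its 3 other loci held between 1.82 and 2.88 FPKM and brought the sum to 18.2 FPKM.

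**Figure D3:**
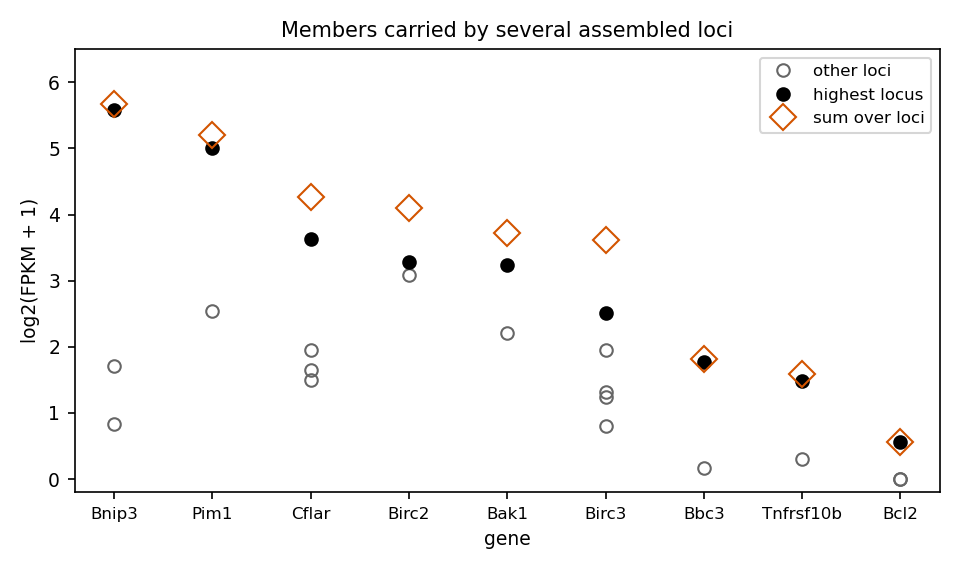
Levels on the log2(FPKM + 1) scale of the 9 members carried by several loci of the assembly: filled circles are the highest locus, open circles the others, and diamonds the sum over loci. The diamond stands well above the highest locus in Birc2, Birc3 and Cflar, whose sums are 16.2, 11.2 and 18.2 FPKM, and next to it in Bnip3 and Bcl2.

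On the death side, both pore formers were present. Bax stood at 16.2 FPKM, above 81.6% of named genes, and Bak1 at 8.48 FPKM, a ratio of 1.91. With the second locus of Bak1, at 3.64 FPKM, the ratio came to 1.34, and the span of Bak1 overlaps that of Ggnbp1, at 2.51 FPKM. Mcl1 stood 2.18 times as high as Bax, and Bcl2l1 stood at 0.484 times the level of Bax.

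The BH3-only genes had a wide range, with the highest 77.0 times the lowest. Bad, whose protein is held inactive by phosphorylation downstream of AKT and PIM kinases, stood at 27.7 FPKM and made up 54.9% of the FPKM summed over the 7 genes. Bmf, which is linked to loss of attachment and to lumen formation in mammary epithelium, stood at 8.97 FPKM. Bid, which couples caspase-8 to the mitochondrion, stood at 6.14 FPKM. Bbc3, encoding the p53 target PUMA, stood at 2.42 FPKM and Bcl2l11, encoding BIM, at 2.33 FPKM. Bik stood at 2.57 FPKM and Pmaip1, encoding NOXA, a partner of MCL1, at 0.360 FPKM, above 14.5% of named genes. The median of the group was 2.57 FPKM, and 3 of the 7 genes lay above the median of all named genes. On the log2(FPKM + 1) scale and without a filter, the group median was 1.84, against 2.29 for all named genes. It came to 2.34 over 6 genes with single-locus genes or with a minimum of 1 FPKM. Such a minimum would also raise the median of all named genes, which was not recomputed with either filter. The value of 2.34 therefore cannot be set against 2.29, and no direction is given for the filtered values. Mcl1 stood 15.1 times as high as Bcl2l11. The spans of Bad and Bcl2l11 overlap those of Gpr137, at 6.30 FPKM, and Acoxl, listed at 0, and reads from such overlaps cannot be told apart without strand.

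Bnip3 and Bnip3l were among the highest members. Both encode outer mitochondrial membrane proteins with a BH3-like stretch that are better known as receptors for the removal of mitochondria by autophagy, and Bnip3 is a known hypoxia target. Bnip3 stood at 47.0 FPKM, above 93.8% of named genes, with other loci at 2.26 and 0.789 FPKM, and Bnip3l at 32.8 FPKM. The sequence before the start of Bnip3 is shown because it holds, in capitals, an E-box, CACGTG, which contains the hypoxia response core ACGTG on both strands and starts 108 bases before the transcript start.
Bnip3 promoter, GRCm38.p6 chr7:138909507-138909756, minus strand: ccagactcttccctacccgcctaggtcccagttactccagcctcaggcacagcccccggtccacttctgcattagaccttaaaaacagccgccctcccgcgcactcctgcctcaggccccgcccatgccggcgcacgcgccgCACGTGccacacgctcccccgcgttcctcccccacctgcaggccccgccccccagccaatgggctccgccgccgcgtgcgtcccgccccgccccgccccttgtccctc

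Further down the mitochondrial pathway, levels of partners differed widely. Cycs, the cytochrome c gene, was the highest member at 62.3 FPKM. It also serves respiration, and the gene table names 3 pseudogenes of it, so reads shared with such copies make its level uncertain. The same holds for Bnip3l and Trp53, with 1 named pseudogene each. Diablo, encoding Smac, which displaces IAP proteins from caspases, stood at 33.8 FPKM, and Xiap stood at 0.261 times that level. Apaf1, the scaffold of the apoptosome, stood at 1.20 FPKM, above 28.8% of named genes, and its partner Casp9 at 5.20 FPKM, 4.34 times as high. The span of Apaf1 overlaps that of Ikbip, which stood at 6.21 FPKM, and that of Diablo overlaps B3gnt4, listed at 0.

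**Figure D4:**
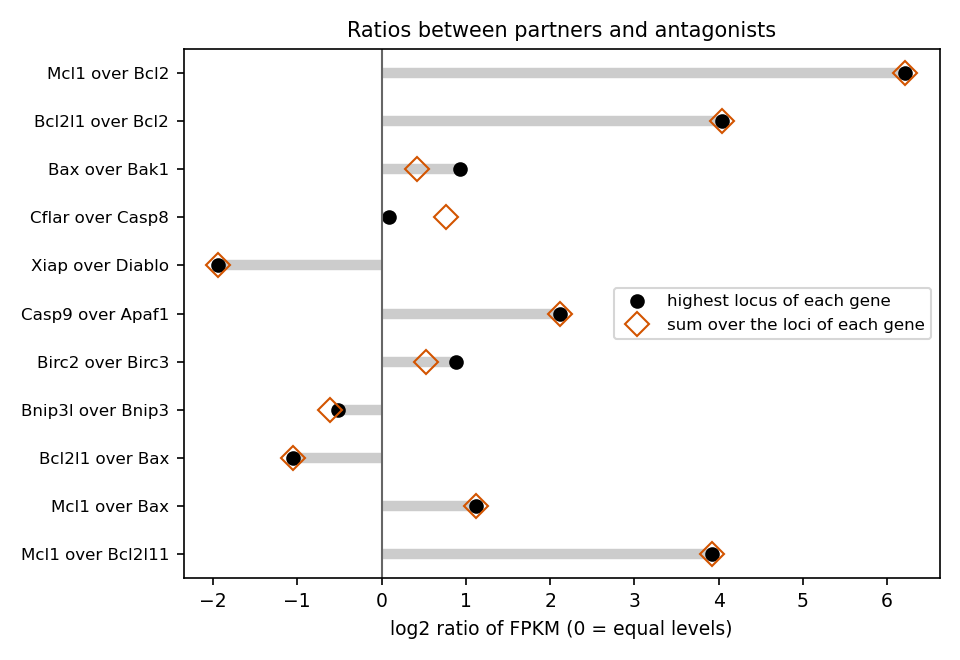
Log2 ratios of FPKM for 11 pairs of partners or antagonists, with the first-named gene on top of the ratio; filled circles use the highest locus of each gene and diamonds the sum over loci. Mcl1 over Bcl2 lies farthest to the right and Xiap over Diablo farthest to the left, and the ratio of Cflar to Casp8 goes from 1.06 by the highest locus to 1.70 by the sum.

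The 6 caspase members lay between 4.66 and 14.7 FPKM, all above the median of named genes. Casp6, an executioner caspase, was the highest at 14.7 FPKM, followed by Casp8, the initiator at death receptors, at 10.7 FPKM. Casp2 stood at 5.76 FPKM and Casp9 at 5.20 FPKM. Casp1, the inflammatory caspase that processes interleukin-1, stood at 5.05 FPKM and Casp12, also grouped with the inflammatory caspases, at 4.66 FPKM. The leukocyte markers beside them were low, with Csf1r at 3.004 and Ptprc at 2.47 FPKM, and their part in the level of Casp1 was not tested. The sequence before the start of Casp12 is shown because it was one of a few member promoters with the core letters of a STAT5 motif, TTCNNNGAA, which are in capitals and start 102 and 36 bases before the transcript start.
Casp12 promoter, GRCm38.p6 chr9:5345226-5345475, plus strand: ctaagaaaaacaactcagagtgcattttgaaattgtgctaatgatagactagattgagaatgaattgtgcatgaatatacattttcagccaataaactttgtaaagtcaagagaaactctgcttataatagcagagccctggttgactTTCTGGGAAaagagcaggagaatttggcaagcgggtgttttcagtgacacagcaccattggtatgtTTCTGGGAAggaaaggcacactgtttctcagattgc

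All 5 measured genes of the death receptor arm (100%) reached 1 FPKM, against 73.6% of all named genes. At 5 FPKM the share was 1 of 5 (20.0%), against 44.3% of named genes, and at 10 FPKM 20.0% against 27.9%. The direction thus depended on the level, and 5 genes are too few to read a difference from these shares. Ripk1, a kinase that directs TNF receptor signals to survival or to death, stood at 11.4 FPKM. The adaptor genes Tradd and Fadd stood at 4.08 and 2.50 FPKM. Tnfrsf10b, the receptor for the ligand TRAIL, stood at 1.78 FPKM, and Ripk3, the kinase of necroptosis, at 1.04 FPKM. The median of the 5 measured genes was 2.50 FPKM. Ripk1 overlaps Serpinb6a in the gene table, and Serpinb6a stood at 17.2 FPKM. Cflar and Casp8, which meet at these receptors, stood at 11.4 and 10.7 FPKM, a ratio of 1.06, or 1.70 when the loci of Cflar were summed. Trp53, which encodes the stress-activated transcription factor p53, stood at 9.90 FPKM, above 71.9% of named genes. One of the 2 promoter windows of Ripk1 also held the STAT5 core letters, in capitals, starting 108 and 11 bases before the transcript start.
Ripk1 promoter, GRCm38.p6 chr13:34002624-34002873, plus strand: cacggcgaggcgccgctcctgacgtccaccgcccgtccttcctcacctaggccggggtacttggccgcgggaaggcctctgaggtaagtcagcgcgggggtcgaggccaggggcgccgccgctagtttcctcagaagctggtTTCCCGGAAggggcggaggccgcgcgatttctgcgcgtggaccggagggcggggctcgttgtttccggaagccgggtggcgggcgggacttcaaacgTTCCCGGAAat

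Promoters of the members held a STAT5 core and a GC box about as often as those of named genes of at least 1 FPKM. The members counted here include Bcl2l2 and Tnfrsf1a, which had no measured level, and Bcl2, at 0.474 FPKM. The compared genes all reached 1 FPKM, so the sets are not fully alike. RefSeq windows on GRCm38.p6, from 250 bases before to 50 bases after a transcript start, were found for 32 of the 37 members, with 45 windows in all, and Bik, Bnip3l, Pmaip1, Tnfrsf10b and Tradd had none. The STAT5 core TTCNNNGAA, searched on both strands, was in 3 of the 45 windows (6.67%), against 8.30% of all 32851 windows and 6.95% of the 10011 windows of named genes of at least 1 FPKM. The windows that held it belonged to Casp12, Ripk1 and the unmeasured Tnfrsf1a, all death genes. They were 3 of the 29 windows of death genes (10.3%), and none of the 16 windows of survival genes held it. These are too few windows to compare the sides. The E-box CACGTG was in 7 member windows (15.6%), against 7.15% of all windows and 9.93% of those of genes of at least 1 FPKM. The core ACGTG, which the E-box contains, was in 14 (31.1%), against 19.6% and 25.5%. The GC box GGGCGG was in 28 windows (62.2%), against 35.7% of all windows and 62.6% of those of genes of at least 1 FPKM. Below both backgrounds were CCAAT, in 14 windows (31.1%) against 37.4% and 37.6%, and TATAAA, in 3 windows (6.67%) against 13.6% and 7.41%. The motif counts rest on few member windows, several of them of the same gene, and no difference was tested. The median ratio of observed to expected CpG was 0.750 in member windows and 0.753 in windows of genes of at least 1 FPKM, while over all windows it was 0.384. A match of letters is not a binding site, and the STAT5A and H3K4me3 lists, in another genome build, were not set against these windows.

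Several members lie next to a relative in the genome. Cflar and Casp8 are neighbours on chromosome 1, with a ratio of 1.06 by the highest locus and 1.70 when loci were summed. Bid lies beside Bcl2l13 on chromosome 6, at 6.14 and 5.52 FPKM. On chromosome 9, Birc2 and Birc3 are neighbours, and Casp4 lies between Casp1 and Casp12, with Casp4 at 8.82 FPKM above both. In these neighbouring pairs the higher gene was at most 1.89 times the lower one by the highest locus, in 1 library without an error. The ratio was not computed for other neighbouring genes, so it has no background.

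Other genes of the pathway, from lists of 22 survival and 38 death genes that are no members, spread more widely. Of these 60 genes 51 were measured. At least 1 FPKM was reached by 42 of them (82.4%), against 73.6% of all named genes, and 10 FPKM by 21 (41.2%), against 27.9%. Their median was 7.14 FPKM, against 7.83 FPKM over the 35 members. By side, the median was 6.86 FPKM over the 18 measured survival genes and 7.14 FPKM over the 33 measured death genes. Survival genes thus did not stand above death genes here, unlike among the members. On the survival side the endoplasmic reticulum genes Tmbim6 and Dad1 stood at 250 and 249 FPKM, the kinase gene Akt1 at 169 and the BAG family gene Bag1 at 87.9, while Bcl2l10 stood at 0.307 FPKM. On the death side the mitochondrial channel genes Vdac2 and Vdac1 stood at 75.9 and 74.0 FPKM and the p53 target Perp at 36.7 FPKM. Fasl, a death ligand, stood at 0.0517 FPKM, the lowest of these genes. Chosen after their values were seen, the ligand genes Tnf and Tnfsf10, which encodes TRAIL, stood at 0.493 and 1.56 FPKM, and the receptor gene Fas at 8.32 FPKM.

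**Figure D5:**
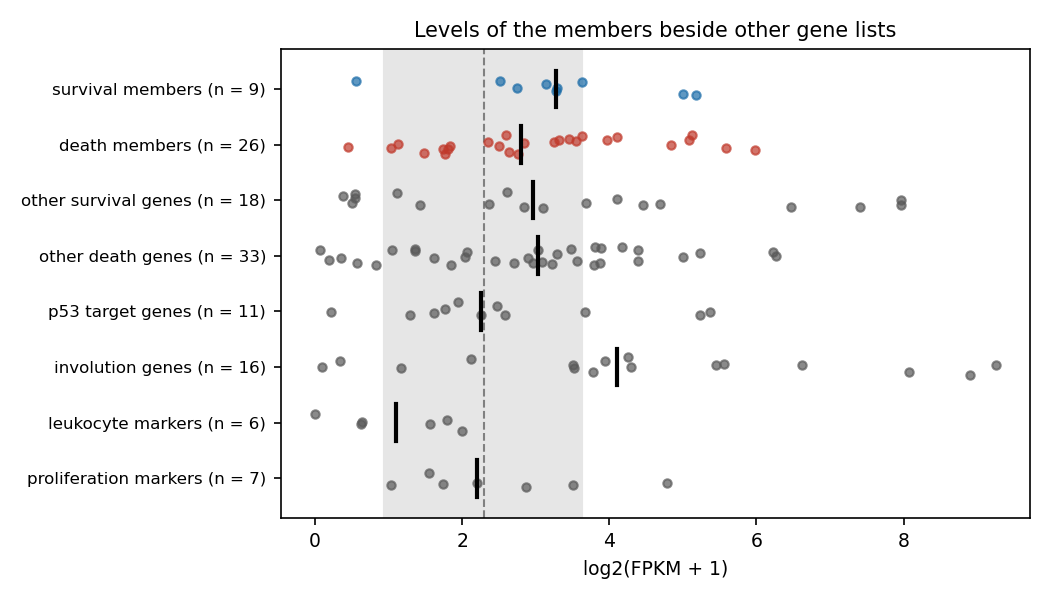
Levels on the log2(FPKM + 1) scale of survival members, death members and 6 other gene lists, 1 point per gene, with a black bar at each median, the dashed line at the median of all named genes and the grey band over their middle 50%. The bars of survival and death members, at 3.28 and 2.80, lie right of the dashed line at 2.29, and that of the leukocyte markers lies left of it at 1.10.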

How the data were processed

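RNA of whole mammary tissue at parturition was poly(A)-selected and sequenced from TruSeq libraries, per the labels' protocols. The submitters' processing notes name CASAVA, TopHat and mm9, and which tool computed the expression values is not stated there. The deposited table gives FPKM, computed by the authors, for 30305 loci of a transcript assembly: 21958 with 1 symbol, 117 with several and 8230 with none. Loci with several symbols entered no gene, and a gene took its highest locus. FPKM from 1 library hold no counts, so depth is unknown and no interval or test was computed. The labels do not state strand-specific counting, so reads of overlapping genes cannot be told apart. Members were sorted into survival and death genes by textbook role, and medians were taken on log2(FPKM + 1) with no minimum level. The members and lists were chosen with earlier results of these data known. Of lists other than the members, the 4 highest genes and the lowest were named where they are used. A few such genes are not reported here. Older symbols and neighbours came from the GRCm38.p6 gene table. Alternatives were the sum over loci, single-locus genes, loci with several symbols counted, a pseudocount of 0.1, a minimum of 1 FPKM, means, and members left out by mixed role or overlap. The STAT5A and H3K4me3 lists, in mm9, were not used here. Summaries were tested on simulated data with Python 3.11.15 and pandas 2.3.3.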

Additional observations from a re-analysis of the deposited data

How the results depend on the processing

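The difference between the medians of survival and death genes, 0.49 on the log2(FPKM + 1) scale, ran from 0.23 with means of log2 levels to 0.81 with the sum over loci. It was above 0 under all 8 alternatives, including the omission of 7 members that overlap another named gene, which was chosen after seeing the data. All of these alternatives drew on the same members. Among the pathway genes that are no members the order was reversed, with medians of 2.97 for survival genes and 3.03 for death genes. Counting loci with several symbols changed no member's level, so that alternative could move no value. With single-locus genes only 4 survival genes were left. The ratio of mean levels in FPKM, survival over death, was 1.00. The shares of members reaching 1, 5 and 10 FPKM were recomputed with the sum over loci, with single-locus genes and with loci of several symbols counted, and stayed within 1.5 times of the values given. The ratio of Cflar to Casp8 moved to 1.70 with the sum over loci. That setting, which adds the further loci of a gene, also put Birc2, Birc3 and Cflar over 1.5 times above the levels given. No paired analysis was possible because only 1 library has an expression table. Depth is unknown, so the precision of low levels such as those of Bcl2 and Pmaip1 cannot be given.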

Other observations

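Genes known from the remodelling of the gland after weaning mostly stood above the median of named genes at parturition, over a wide range. All 16 were measured, with a median of 16.3 FPKM. The lysosomal protease genes Ctsd, Ctsb and Ctsl stood at 608, 268 and 97.1 FPKM and the secreted chaperone gene Clu at 478 FPKM. The cytokine gene Osm was the lowest at 0.0718 FPKM, and Lif, which starts the first phase of involution through STAT3, stood at 0.265 FPKM, chosen after its value was seen.

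Of 12 targets of p53, 11 were measured, and their median of 3.79 FPKM lay near the 3.90 FPKM of all named genes, with 5 of the 11 above it. The autophagy gene Ei24 stood at 40.3 FPKM, the cyclin G1 gene Ccng1 at 36.8, Mdm2, which encodes the ubiquitin ligase of p53, at 11.8 and Trp53inp1 at 5.01, while Eda2r stood at 0.167 FPKM. Cdkn1a, the cell cycle inhibitor gene, stood at 4.58 FPKM and was chosen after its value was seen.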
